A study of Mus musculus with 2 samples.

Results

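The proteasome is the barrel-shaped protease complex that degrades proteins tagged with ubiquitin. Its 20S core particle is built from rings of alpha subunits, which gate the entrance, and beta subunits, of which 3 carry the protease activity. A 19S cap binds the ubiquitin tag, removes it, and unfolds the substrate with a ring of ATPases. In cells exposed to interferon gamma, and constantly in many leukocytes, the 3 catalytic beta subunits are replaced by immunoproteasome subunits, which change the peptides that are passed to MHC class I molecules. Liver hepatocytes contain mostly the constitutive form.

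The proteasome subunit genes were taken as all genes whose symbol is Psma, Psmb, Psmc, Psmd or Psme followed by a number. There were 43 such genes among the 26440 genes of the deposited tables, each represented by 1 RefSeq accession. They were divided by function into 14 genes of the constitutive 20S core, 3 immunoproteasome genes, 6 ATPases of the 19S base, 3 other base subunits, 8 lid subunits, 3 assembly chaperones of the base, 3 PA28 activator genes, the PA200 activator gene and 2 core subunits known from testis and thymus.

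The RNA came from the livers of 11-day-old BALB/c mice, sequenced as 1 library labelled SRSF2-/- (SRSF2-KO) and 1 wild-type (WT) library with no deletion named. The series describes the deletion as liver-specific, and the sources used here state neither the driver that restricts it nor how many animals each library holds. Srsf2 encodes a serine/arginine-rich splicing factor, and the study asked how the liver transcriptome differs when it is lost. Srsf2 itself had 832 reads in the SRSF2-KO and 1998 reads in the WT library, a level of 0.421 of WT (0.388 to 0.457). The SRSF2-KO library held 22111605 reads and the WT library 22407743.

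Levels are FPKM, fragments scaled to transcript length and library size, as deposited by the authors, so levels of different genes are compared per length. Ratios are SRSF2-KO over WT, and the range in parentheses after a ratio is the exact 95% (Clopper-Pearson) interval of the read ratio, which covers counting error only. With 1 library per genotype no test between genotypes was possible, and the values describe these 2 libraries. Log2 ratios are on the log2(FPKM + 1) scale and were taken for genes that reached 1 FPKM in either library; 41 of the 43 subunit genes and 12477 genes in all passed this filter. In RNA from whole liver, fewer cells of a type and less RNA per cell cannot be told apart.

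Most proteasome genes were higher in the SRSF2-KO library by a similar and moderate amount, close to the shift of the transcriptome as a whole. The 41 tested members had a median log2 ratio of 0.70, against 0.55 over all 12477 tested genes, a margin of 0.15 that depends on the scale. It was 0.03 on read counts, 0.05 with a pseudocount of 0.1 and 0.34 with a pseudocount of 5. On plain FPKM ratios, without the pseudocount, the median was 1.66-fold over the members and 1.63-fold over all tested genes. Of the members, 29 of 41 (70.7%) had a log2 ratio between 0.5 and 1, as did 35.3% of all tested genes. Psmd8, a lid subunit, stood far above the others at 380 FPKM in the SRSF2-KO and 57.7 FPKM in the WT library. The 3 immunoproteasome genes and Psme4 stood below them, with a lower level in the SRSF2-KO than in the WT library.

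At a size rule of 2-fold on the log2(FPKM + 1) scale, 6 of 41 tested members (14.6%) were higher in the SRSF2-KO library, against 19.2% of all tested genes. They were Psma6, Psmd7, Psmd8, Psmd9, Psmd11 and Psmd12. No member was 2-fold lower (0 of 41), against 2.95% of all tested genes. With the general shift of 0.55 subtracted (called centring from here on), 1 of 41 members (2.44%), Psmd8, was 2-fold higher, against 5.67% of all tested genes, and 0 were 2-fold lower, against 6.66%. The read ratio interval lay wholly above 1 for 37 of 41 members (90.2%), against 76.8% of all tested genes, and wholly below 1 for 2 members (4.88%), against 11.1%. By the 2-fold rule the share of members higher was below the background, as deposited and after centring.

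**Figure D1:**
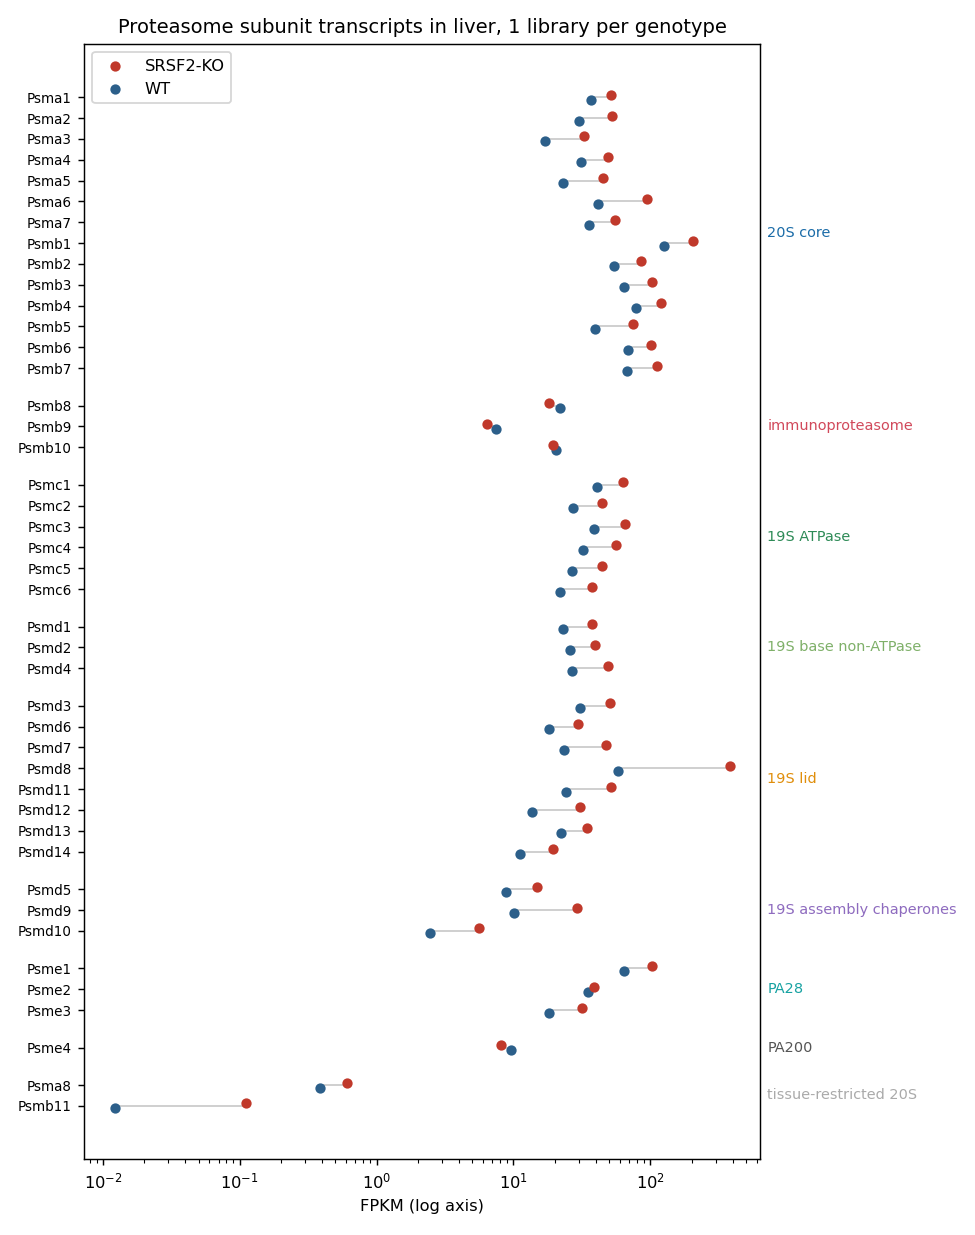
FPKM (log axis) of the 43 proteasome subunit genes in the SRSF2-KO library (red) and the WT library (blue), ordered by class from top to bottom, 1 point per library. In most rows the red point lies a similar distance to the right of the blue one; among the 41 tested genes Psmd8 is displaced furthest, to 380 FPKM, and Psmb8, Psmb9, Psmb10 and Psme4 have the red point on the left.

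The 7 alpha subunits, which form the outer rings of the core and open or close its gate, were higher in the SRSF2-KO library without exception. Psma6 had the largest ratio, at 94.3 FPKM in the SRSF2-KO and 41.6 FPKM in the WT library, 2.27-fold (2.11 to 2.44). Psma5 followed at 45.2 FPKM in the SRSF2-KO and 22.8 FPKM in the WT library, 1.98-fold (1.81 to 2.17), and on the log2(FPKM + 1) scale, at 0.95, it lay just under the 2-fold rule. Psma1 had the smallest ratio, at 51.8 FPKM in the SRSF2-KO and 37.1 FPKM in the WT library, 1.40-fold (1.30 to 1.51). The intervals of Psma6 and Psma1 did not overlap. Psma1 was the core gene whose log2 ratio, 0.47, lay below the median of all genes, so that it turns negative (-0.08) after centring.

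Between these ends, Psma3 stood at 32.6 FPKM in the SRSF2-KO and 17.02 FPKM in the WT library, 1.92-fold. Psma2 stood at 52.8 FPKM in the SRSF2-KO and 30.3 FPKM in the WT library. Psma4 had 49.2 FPKM in the SRSF2-KO and 31.4 FPKM in the WT library. These 3 ratios lay between 1.5 and 2. Psma7 was the nearest to Psma1 in ratio, at 55.0 FPKM in the SRSF2-KO and 35.7 FPKM in the WT library, 1.54-fold (1.43 to 1.66).

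Of the beta subunits, Psmb5, Psmb6 and Psmb7 carry the chymotrypsin-like, caspase-like and trypsin-like activities of the constitutive core, and Psmb1 to Psmb4 are structural. Psmb5 had the largest ratio among them, at 74.9 FPKM in the SRSF2-KO and 39.4 FPKM in the WT library, 1.90-fold (1.75 to 2.06). Psmb7 was at 112 FPKM in the SRSF2-KO and 67.4 FPKM in the WT library, 1.66-fold (1.56 to 1.77). Psmb6 was at 102 FPKM in the SRSF2-KO and 68.9 FPKM in the WT library, 1.48-fold (1.39 to 1.57). The 3 catalytic subunits were therefore all higher, and the interval of Psmb5 did not reach that of Psmb6. The transcript of Psmb5 has a near-identical copy elsewhere in the annotation, so its reads may be divided.

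The structural beta subunits were uniform. Psmb1, the most abundant core transcript in both libraries, stood at 204 FPKM in the SRSF2-KO and 127 FPKM in the WT library, 1.61-fold (1.54 to 1.68). Psmb4 had 119.7 FPKM in the SRSF2-KO and 79.0 FPKM in the WT library. Psmb3 had 104 FPKM in the SRSF2-KO and 64.8 FPKM in the WT library. Their ratios were 1.52 and 1.599, and Psmb2, at 84.9 FPKM in the SRSF2-KO and 53.9 FPKM in the WT library, had 1.58.

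Over the 14 core genes the median log2 ratio was 0.68, or 0.12 after centring, with an SD between genes of 0.19, against 0.78 between all tested genes. Core transcripts differed among themselves by more than between the genotypes: the highest and lowest level were 6.26-fold apart in the SRSF2-KO and 7.45-fold apart in the WT library, Psmb1 at the top and Psma3 at the bottom in both. The place of Psma3 rests on the length scaling. It had 1990 reads in the SRSF2-KO and 1051 in the WT library, where Psma5 had 1441 and 736. Up to 772 bases of the Psma3 transcript (27.1%) also match another gene, at 96.5% identity. The order of the 14 levels was nearly the same in the 2 libraries (Spearman's rho 0.96 across genes, which share transcript length and sequence between libraries and are not independent replicates). Summed over the core, the level was 1182 FPKM in the SRSF2-KO and 716 FPKM in the WT library, a ratio of 1.65.

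The 3 immunoproteasome genes did not follow the core. Psmb8, the counterpart of Psmb5, had 581 reads in the SRSF2-KO and 704 in the WT library, which is 18.1 FPKM in SRSF2-KO and 21.7 FPKM in WT, a ratio of 0.835 (0.747 to 0.933). Psmb10, the counterpart of Psmb7, had 731 reads in the SRSF2-KO and 777 in the WT library, which is 19.4 FPKM in SRSF2-KO and 20.3 FPKM in WT, a ratio of 0.952 (0.859 to 1.06). Psmb9, the counterpart of Psmb6, had 229 reads in the SRSF2-KO and 266 in the WT library, which is 6.45 FPKM in SRSF2-KO and 7.40 FPKM in WT, a ratio of 0.871 (0.727 to 1.04). The interval of Psmb8 lay below 1, and those of Psmb9 and Psmb10 spanned it. The class median on the log2 scale was -0.17 (-0.73 after centring). Its difference from the core median was -0.85, and this ranged from -0.88 to -0.77 over the processing alternatives.

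Set against their constitutive counterparts, all 3 immunoproteasome subunits made up a smaller part of their pair in the SRSF2-KO library. Psmb8 was 19.5% of the summed FPKM of Psmb8 and Psmb5 in the SRSF2-KO and 35.5% in the WT library; its read ratio to Psmb5 was 0.439 times that in WT (exact conditional 95% interval 0.382 to 0.504). Psmb10 was 14.7% of its pair in the SRSF2-KO and 23.2% in the WT library, 0.573 times WT (0.509 to 0.645). Psmb9 was 5.95% of its pair in the SRSF2-KO and 9.70% in the WT library, 0.590 times WT (0.487 to 0.713). None of the 3 intervals reached 1, and they do not depend on how the libraries are scaled. Psmb5 has a near-identical copy, Gm3375, which matches 88.5% of its transcript at 98.9% identity. How reads shared with this copy were counted is not stated. Together the immunoproteasome genes made 13.2% of the summed FPKM of the 6 catalytic genes in the SRSF2-KO and 21.96% in the WT library.

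**Figure D2:**
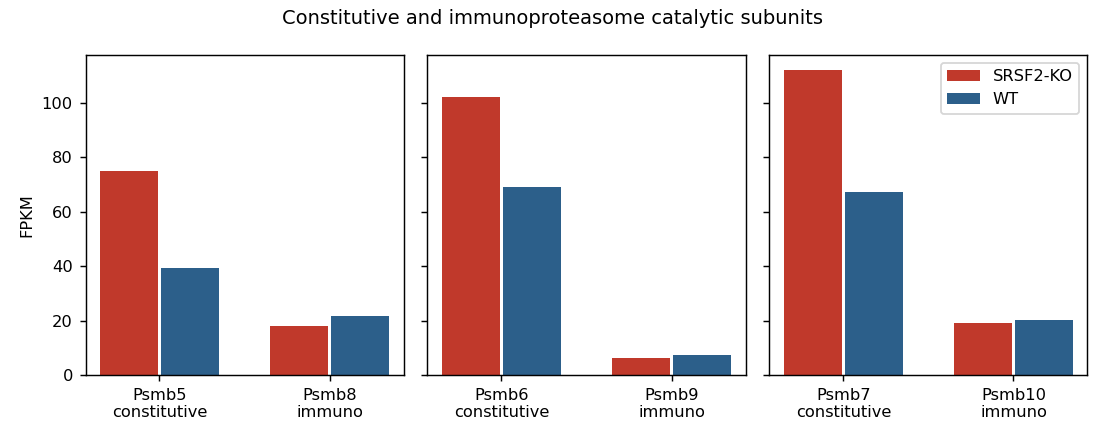
FPKM of each constitutive catalytic subunit and its immunoproteasome counterpart, with the SRSF2-KO library in red and the WT library in blue, 1 library per bar. The constitutive bars are taller in the SRSF2-KO library, for Psmb5 74.9 FPKM in SRSF2-KO against 39.4 FPKM in WT, while the immunoproteasome bars are slightly shorter, for Psmb8 18.1 FPKM in SRSF2-KO against 21.7 FPKM in WT.

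Psmb8 and Psmb9 lie in the MHC class II region beside the peptide transporter genes Tap1 and Tap2, and Psmb9 and Tap1 are divergent neighbours. Tap1, which carries proteasome products into the endoplasmic reticulum, stood at 11.4 FPKM in the SRSF2-KO and 6.86 FPKM in the WT library, 1.66-fold (1.49 to 1.85), while its neighbour Psmb9 had the ratio of 0.871 given above. The read ratio of Psmb9 to Tap1 was 0.525 times that in WT (0.424 to 0.649). H2-DMb1, the neighbour on the other side and a class II peptide-loading gene chosen after its values were seen, stood at 10.1 FPKM in the SRSF2-KO and 1.89 FPKM in the WT library. The annotated transcripts of Psmb9 and Tap1 share 212 bases, 15.7% of the Psmb9 transcript, and whether counting used strand is not stated, so reads in that stretch may be counted for either gene. The sequence just upstream of the RefSeq start of Psmb9 is shown because Psmb9 and Tap1 are divergent neighbours. The shared bases come from another annotation, GENCODE M21, so this stretch may not lie between the genes there. A stretch upstream of Psmb8 is also shown. Among the member promoters found, that of Psmb8 is the only match to GAS, the interferon gamma-activated site (TTCNNNGAA, either strand). Capitals mark a GC box (GGGCGG, either strand) and a CCAAT box (CCAAT, either strand) in Psmb9 and the GAS match in Psmb8; both are from RefSeq on GRCm38.p6, Psmb9 at chr17:34187331-34187450 on the minus strand and Psmb8 at chr17:34198082-34198121 on the plus strand.
Psmb9: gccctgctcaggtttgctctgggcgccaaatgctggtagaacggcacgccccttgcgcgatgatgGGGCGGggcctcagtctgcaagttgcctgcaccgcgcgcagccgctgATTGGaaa
Psmb8: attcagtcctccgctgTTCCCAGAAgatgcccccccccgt

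The 6 ATPases form the ring at the base of the 19S cap that unfolds substrates and feeds them into the core. They were the most uniform class with several genes, with log2 ratios from 0.61 to 0.77 and an SD of 0.06, and a median of 0.72, or 0.16 after centring. Psmc3 was the most abundant in the SRSF2-KO library, at 64.8 FPKM there and 39.0 FPKM in the WT library, 1.66-fold (1.56 to 1.77). Psmc1 had the lowest ratio, at 63.4 FPKM in the SRSF2-KO and 41.1 FPKM in the WT library, 1.54-fold (1.45 to 1.64). Psmc4 had the highest, at 56.1 FPKM in the SRSF2-KO and 32.5 FPKM in the WT library, 1.73-fold (1.61 to 1.85). The ratios of Psmc2, Psmc3, Psmc5 and Psmc6 lay between these.

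The other ATPases had lower levels than Psmc1, Psmc3 and Psmc4 in both libraries. Psmc2 had 44.4 FPKM in the SRSF2-KO and 27.1 FPKM in the WT library. Psmc5 had 44.5 FPKM in the SRSF2-KO and 26.7 FPKM in the WT library. The lowest level in both libraries was that of Psmc6, at 37.5 FPKM in the SRSF2-KO and 21.8 FPKM in the WT library. The median of the ATPases exceeded that of the core by 0.04, which is less than the counting interval of a single gene.

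The other base subunits behaved in the same way. Psmd1 and Psmd2 encode the large scaffold proteins of the base, and Psmd4 encodes a ubiquitin receptor. Psmd4 stood at 49.2 FPKM in the SRSF2-KO and 26.8 FPKM in the WT library, 1.84-fold (1.70 to 1.99). Psmd1 stood at 37.4 FPKM in the SRSF2-KO and 23.0 FPKM in the WT library, 1.62-fold (1.53 to 1.72). Psmd2 had a ratio of 1.51 (1.43 to 1.598) and levels of 39.4 FPKM in the SRSF2-KO and 26.1 FPKM in the WT library. The interval of Psmd4 lay above that of Psmd2, the transcript of which has a near-identical copy elsewhere in the annotation.

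The lid of the 19S cap removes ubiquitin chains, and it held the member with the largest ratio among the 41 tested. Psmd8, which encodes a lid subunit, had 15073 reads in the SRSF2-KO and 2315 in the WT library, which is 380 FPKM in SRSF2-KO and 57.7 FPKM in WT, 6.59-fold (6.31 to 6.89). Its log2 ratio was 2.70, or 2.15 after centring, and 159 of the 12477 tested genes exceeded it. Psmd8 was the most abundant proteasome transcript in the SRSF2-KO library and ranked 7 of 43 in the WT library. It was 11.0 times the median of the other 7 lid genes in the SRSF2-KO and 2.59 times in the WT library, and it made 15.0% of the summed FPKM of all 43 members in the SRSF2-KO and 4.18% in the WT library. A search of its annotated transcript against all others in GENCODE M21 found no stretch of 100 or more bases at 95% identity or more in another gene.

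The genes that flank Psmd8 in the RefSeq order were scarce in both libraries. Ggn, on one side, had 17 reads in the SRSF2-KO and 8 in the WT library, and Catsperg1, on the other, had 9 in the SRSF2-KO and 5 in the WT library. Beyond Catsperg1, Kcnk6, which encodes a potassium channel, stood at 2.71 FPKM in the SRSF2-KO and 1.31 FPKM in the WT library, 2.07-fold (1.69 to 2.55). The 120 bases upstream of the annotated start of Psmd8 are shown because this gene stood apart, from RefSeq on GRCm38.p6 at chr7:29180674-29180793 on the minus strand, with the GC box in capitals; the stretch holds no CCAAT box.
Psmd8: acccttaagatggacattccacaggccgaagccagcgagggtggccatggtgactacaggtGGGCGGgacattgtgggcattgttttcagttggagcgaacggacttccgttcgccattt

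Among the other 7 lid genes the log2 ratios ranged from 0.61 to 1.11, with a median of 0.73 (0.18 after centring). Psmd12, a scaffold subunit of the lid, stood at 30.7 FPKM in the SRSF2-KO and 13.7 FPKM in the WT library, 2.25-fold (2.04 to 2.47). Psmd11, another scaffold subunit, stood at 52.0 FPKM in the SRSF2-KO and 24.2 FPKM in the WT library, 2.15-fold (1.998 to 2.31). Psmd7, the partner of the deubiquitinase in the lid, stood at 47.8 FPKM in the SRSF2-KO and 23.4 FPKM in the WT library, 2.04-fold (1.89 to 2.21), just past the 2-fold rule at a log2 ratio of 1.001. Psmd14, the deubiquitinase itself, was the least abundant lid transcript, at 19.3 FPKM in the SRSF2-KO and 11.3 FPKM in the WT library, 1.72-fold (1.53 to 1.93). These 4 genes were higher by amounts whose intervals partly overlap. Psmd11 has a near-identical copy, so its reads may be divided.

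Psmd3, Psmd6 and Psmd13 are further structural subunits of the lid with smaller ratios. Psmd3 had 50.8 FPKM in the SRSF2-KO and 30.5 FPKM in the WT library, and Psmd6 had 29.4 FPKM in the SRSF2-KO and 18.3 FPKM in the WT library. For Psmd13 the values were 34.7 FPKM in the SRSF2-KO and 22.3 FPKM in the WT library, 1.55-fold (1.43 to 1.69). Their ratios lay between 1.55 and 1.67, near those of the core and the ATPases. The median of all 8 lid genes exceeded that of the core by 0.19 with Psmd8 and by 0.05 without it.

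**Figure D3:**
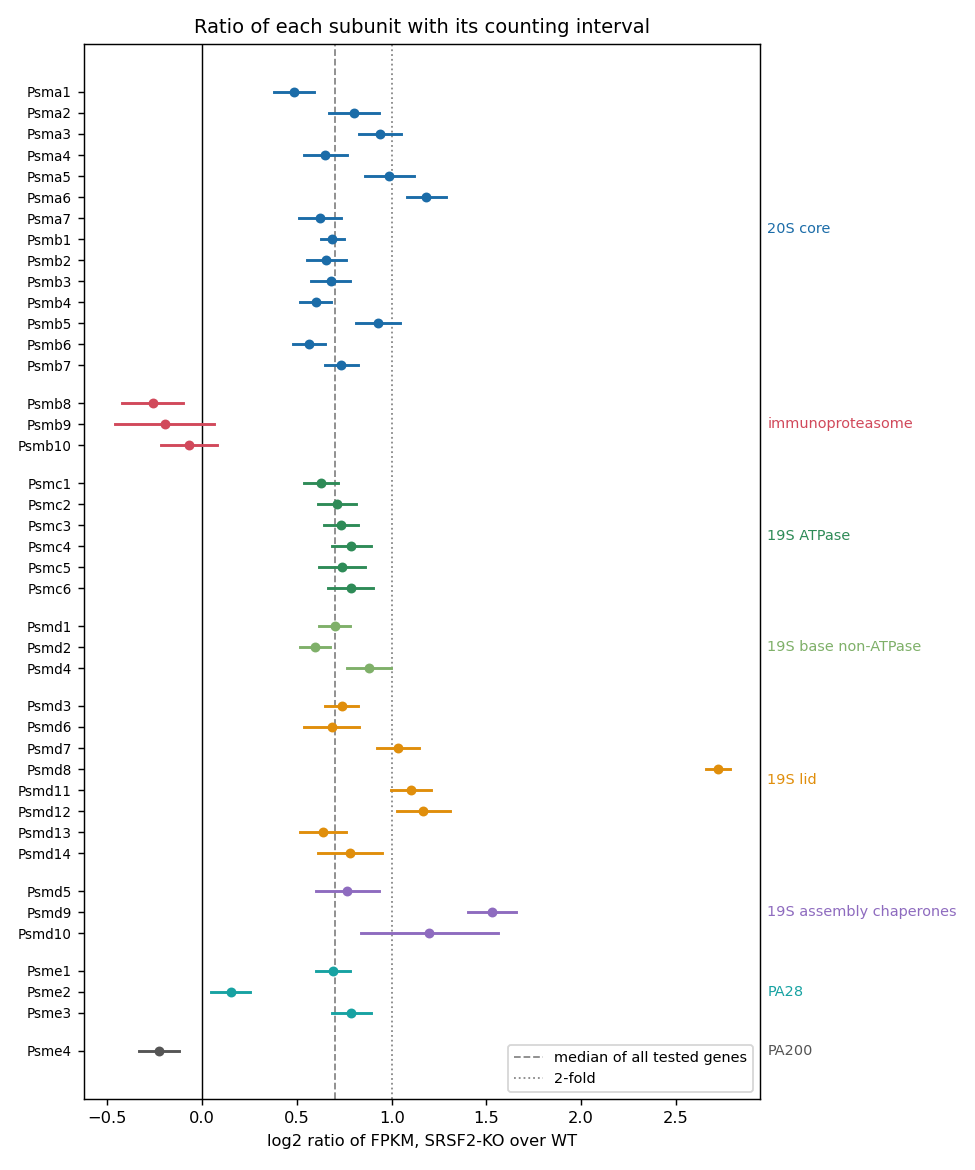
Log2 ratio of plain FPKM, SRSF2-KO over WT, for the 41 tested members by class; points are the ratios and bars their 95% counting intervals. The dashed line is the plain log2 ratio median of all 12477 tested genes, 0.70, and the dotted line is 2-fold. Most members lie near the dashed line, Psmd8 lies far to its right, and the immunoproteasome genes, Psme2 and Psme4 lie to its left.

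The assembly chaperones bind ATPases while the base is being built and leave before the cap is complete. Psmd9 stood at 29.1 FPKM in the SRSF2-KO and 10.1 FPKM in the WT library, 2.88-fold (2.64 to 3.15), the second largest ratio among the tested members after Psmd8. Its log2 ratio of 1.44 was 0.89 after centring, so it was past the 2-fold rule as deposited and not after centring. Psmd10, known as gankyrin, was the least abundant tested member at 5.63 FPKM in the SRSF2-KO and 2.46 FPKM in the WT library, 2.29-fold (1.79 to 2.95). On the log2(FPKM + 1) scale it reached 0.94, because the pseudocount lowers the value of scarce transcripts. Psmd5 stood at 14.9 FPKM in the SRSF2-KO and 8.77 FPKM in the WT library, 1.70-fold (1.51 to 1.91). All 3 chaperone genes were thus higher, and the interval of Psmd9 lay above that of Psmd5.

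The PA28 activators cap the core in place of the 19S complex. Psme1 and Psme2 encode the subunits of the cytoplasmic, interferon-inducible ring, and Psme3 encodes the nuclear one. Psme1 stood at 103 FPKM in the SRSF2-KO and 63.8 FPKM in the WT library, 1.61-fold (1.51 to 1.71). Psme2 stood at 38.5 FPKM in the SRSF2-KO and 34.8 FPKM in the WT library, 1.11-fold (1.03 to 1.19). Psme3 stood at 31.4 FPKM in the SRSF2-KO and 18.2 FPKM in the WT library, 1.73-fold (1.61 to 1.85). Psme2 therefore lagged behind its partner: its read ratio to Psme1 was 0.689 times that in WT (0.626 to 0.758). Its log2 ratio of 0.15 was -0.41 after centring, so its direction depends on the scaling. Psme2 has a near-identical copy, Psme2b, which matches 82.5% of its transcript at 99.4% identity, and how shared reads were counted is not stated.

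Psme4 encodes PA200, a large nuclear activator of the core known for its role in spermatogenesis and histone degradation. It had 1372 reads in the SRSF2-KO and 1627 in the WT library, which is 8.12 FPKM in SRSF2-KO and 9.52 FPKM in WT, a ratio of 0.853 (0.794 to 0.918). Its log2 ratio of -0.21, or -0.76 after centring, resembled those of the immunoproteasome genes, and together with Psmb8 it was the member whose interval lay below 1.

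The core subunits known from other tissues were at the limit of detection and did not pass the filter. Psma8, which replaces Psma7 in the testis, had 28 reads in the SRSF2-KO and 18 in the WT library, which is 0.603 FPKM in SRSF2-KO and 0.383 FPKM in WT. Psmb11, the catalytic subunit of the thymus cortex, had 12 reads in the SRSF2-KO and 1 in the WT library, which is 0.111 FPKM in SRSF2-KO and 0.0123 FPKM in WT, a ratio of 9.02 with an interval of 1.80 to 519. The Psmb11 transcript holds stretches of over 100 bases that match other genes at 95% identity or more, so these few reads may not be its own.

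Summed over all 43 members, proteasome transcripts had 91633 reads in the SRSF2-KO and 49994 in the WT library. They made 0.593% of all FPKM in the SRSF2-KO and 0.320% in the WT library, and without Psmd8 0.504% in the SRSF2-KO and 0.307% in the WT library. Across the 41 tested members, levels in the 2 libraries kept their order (Spearman's rho 0.96 across genes, not independent replicates).

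The proteins that build and service the proteasome, drawn from a list of further genes, gave a median of 0.75 on the log2 scale over 12 tested members (0.20 after centring). Of these 12, 3 passed the 2-fold rule upward and 0 downward, and after centring 0 passed it in either direction. Over all tested genes 19.2% passed it upward and 2.95% downward, and after centring 5.67% and 6.66%. Txnl1, a thioredoxin-like protein bound to the cap, stood at 39.5 FPKM in the SRSF2-KO and 15.6 FPKM in the WT library, 2.53-fold (2.35 to 2.72). Zfand5, a zinc-finger activator of proteasomes, stood at 7.92 FPKM in the SRSF2-KO and 2.87 FPKM in the WT library. Sem1, the small lid subunit, stood at 51.8 FPKM in the SRSF2-KO and 22.8 FPKM in the WT library, 2.27-fold (1.98 to 2.61). These 3 genes were above the median of the family. Pomp, the maturation factor of the core and the most abundant gene of the list, stood at 103 FPKM in the SRSF2-KO and 73.8 FPKM in the WT library, 1.40-fold (1.31 to 1.501).

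Ubiquitin genes and the shuttles that deliver substrates gave a median of 0.74 over 15 tested members (0.18 after centring). The 2-fold rule was passed upward by 4 of the 15, against 19.2% of all tested genes, and downward by 0, against 2.95%. After centring 1 passed it upward, against 5.67%, and 0 downward, against 6.66%. Sqstm1, the receptor p62 that directs ubiquitinated cargo to autophagy, stood at 478 FPKM in the SRSF2-KO and 113 FPKM in the WT library, 4.22-fold (4.11 to 4.34). Rad23b, which carries ubiquitinated proteins to the proteasome, stood at 78.4 FPKM in the SRSF2-KO and 32.8 FPKM in the WT library. Nploc4, a cofactor of the segregase VCP, stood at 25.6 FPKM in the SRSF2-KO and 11.5 FPKM in the WT library. The COP9 signalosome, a complex related to the lid, gave a median of 0.78 over 9 tested members (0.23 after centring), with 2 of the 9 past the rule upward and 0 downward, against 19.2% and 2.95% of all tested genes (0 and 0 after centring, against 5.67% and 6.66%). Its members Cops2 and Cops8 stood at 20.6 and 20.6 FPKM in the SRSF2-KO library and at 8.94 and 9.39 FPKM in the WT library. Cops7b stood at 8.01 FPKM in the SRSF2-KO and 3.59 FPKM in the WT library, and Cops6, the most abundant, at 76.3 FPKM in the SRSF2-KO and 50.7 FPKM in the WT library.

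When proteasomes are inhibited, the transcription factor NRF1, encoded by Nfe2l1, is cut free from the endoplasmic reticulum and raises proteasome genes through antioxidant response elements, together with small Maf proteins; NRF2, encoded by Nfe2l2, binds similar elements. The 8 genes of this route gave a median of 0.69 (0.14 after centring), with 3 of the 8 past the 2-fold rule upward and 0 downward, against 19.2% and 2.95% of all tested genes (2 and 0 after centring, against 5.67% and 6.66%). Nfe2l2 stood at 79.7 FPKM in the SRSF2-KO and 17.1 FPKM in the WT library, 4.66-fold (4.36 to 4.97). Maff stood at 8.05 FPKM in the SRSF2-KO and 1.18 FPKM in the WT library, 6.85-fold (5.30 to 8.97), and Mafk at 7.61 FPKM in the SRSF2-KO and 2.04 FPKM in the WT library. Nfe2l1, named here for its role after its values were seen, stood at 31.7 FPKM in the SRSF2-KO and 16.9 FPKM in the WT library.

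Promoters of 36 of the 43 members were found in RefSeq, and the 250 bases upstream of the start were searched on both strands, overlaps included. The antioxidant response element TGACNNNGC occurred in 5 of 36 members (13.9%) and in 11.5% of all 27025 genes with a promoter. The interferon-stimulated core GAAANNGAAA occurred in 3 members (8.33%) and in 3.46% of all genes, and those 3 were Psmb3, Psmd4 and Psmd9. The promoters of Psmb8 and Psmb9 were searched and had no match to it. Psmb10 either had no promoter among the 36 or matched none of the motifs searched. GAS occurred in 1 member (2.78%), Psmb8, and in 8.13% of all genes. The GC box occurred in 21 members (58.3%) and 35.4% of all genes, and the CCAAT box in 14 members (38.9%) and 37.5% of all genes. A match describes letters and not a bound site. The 5 members with an antioxidant response element had ratios between 1.48 (Psmb6) and 2.88 (Psmd9). Tested members whose searched promoter lacked the element ranged from 0.835 (Psmb8) to 6.59 (Psmd8). A link between element and ratio was not tested. The windows that hold the element are shown with it in capitals, all on GRCm38.p6: Psmb5 at chr14:54618019-54618058 on the minus strand, Psmb6 at chr11:70525317-70525356, Psmc6 at chr14:45329581-45329620, Psmd12 at chr11:107479278-107479317 and Psmd9 at chr5:123228143-123228182 on the plus strand.
Psmb5: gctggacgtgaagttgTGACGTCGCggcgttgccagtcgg
Psmb6: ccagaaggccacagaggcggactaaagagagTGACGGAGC
Psmc6: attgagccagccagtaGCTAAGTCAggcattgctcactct
Psmd12: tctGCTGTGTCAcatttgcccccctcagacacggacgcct
Psmd9: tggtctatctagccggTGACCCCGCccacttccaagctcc

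The pathway that uses proteasome products, MHC class I antigen processing, gave a median of 0.19 over 11 tested members, which turns negative (-0.37) after centring, and 0 members passed the 2-fold rule in either direction under either scaling. The shares over all tested genes were 19.2% upward and 2.95% downward, and 5.67% and 6.66% after centring. B2m, the light chain of class I molecules, stood at 1411 FPKM in the SRSF2-KO and 1235 FPKM in the WT library, 1.14-fold (1.12 to 1.16). The class I heavy chain gene H2-D1 stood at 161 FPKM in the SRSF2-KO and 114 FPKM in the WT library. Erap1, which trims peptides, stood at 11.4 FPKM in the SRSF2-KO and 15.3 FPKM in the WT library, a ratio of 0.746 (0.693 to 0.802). Of the 11 genes, 7 were higher and 4 lower in the SRSF2-KO library as deposited, and Tap1 had the highest log2 ratio.

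Interferon-stimulated genes, some of which share inducers with the immunoproteasome, gave a median of 1.21 over 16 tested members (0.66 after centring). Past the 2-fold rule were 9 of the 16 upward and 0 downward, against 19.2% and 2.95% of all tested genes. After centring these were 7 upward and 1 downward, against 5.67% and 6.66%. Irf7, a transcription factor of the type I response, stood at 38.6 FPKM in the SRSF2-KO and 6.35 FPKM in the WT library, 6.08-fold (5.39 to 6.87). Ifit2 and Ifit3, antiviral proteins, stood at 9.82 and 20.3 FPKM in the SRSF2-KO library and at 1.09 and 3.15 FPKM in the WT library. Bst2, the most abundant of the list, stood at 60.1 FPKM in the SRSF2-KO and 52.4 FPKM in the WT library. The list was not uniform, since 4 of its 16 genes (Bst2, Igtp, Irf1 and Irgm1) lay below the median of all genes, as did the immunoproteasome genes and Psme2. Igtp, an interferon-inducible GTPase named after its values were seen, stood at 8.77 FPKM in the SRSF2-KO and 18.05 FPKM in the WT library, a ratio of 0.486 (0.434 to 0.544). The difference between the lists was not tested.

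Markers of other cells also differed between the libraries; their counts stand against all-gene shares of 19.2% upward and 2.95% downward, and 5.67% and 6.66% after centring. Leukocyte markers, whose cells contain much immunoproteasome, passed the 2-fold rule upward for 8 of 15 tested genes and downward for 0 (5 and 2 after centring). They had a summed level of 489 FPKM in the SRSF2-KO and 133 FPKM in the WT library and no marker at 0 reads in either. H2-Aa, an MHC class II chain, stood at 73.8 FPKM in the SRSF2-KO and 11.3 FPKM in the WT library. Macrophage markers were 2-fold higher for 5 of 11 (1 after centring), with sums of 992 FPKM in the SRSF2-KO and 395 FPKM in the WT library, also with none at 0. Erythroid markers summed to 237 FPKM in the SRSF2-KO and 415 FPKM in the WT library over 7 matched genes, 4 of them tested, with 0 past the rule (2 lower after centring); Hbb-b1 was at 0 reads in both. Hepatocyte markers were 2-fold lower for 5 of 8 (7 after centring) and summed to 65353 FPKM in the SRSF2-KO and 132149 FPKM in the WT library, with none at 0. Exocrine pancreas markers were 2-fold higher for 8 of 8 tested genes and summed to 749 FPKM in the SRSF2-KO and 5.24 FPKM in the WT library, where Pnlip and Cel were at 0 reads, and skeletal muscle markers (7 of 7 tested higher, 6 after centring) to 72.7 FPKM in the SRSF2-KO and 0.261 FPKM in the WT library, where Acta1, Myh4 and Myh1 were at 0. The part of these cells in the levels of the proteasome genes was not tested.

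**Figure D4:**
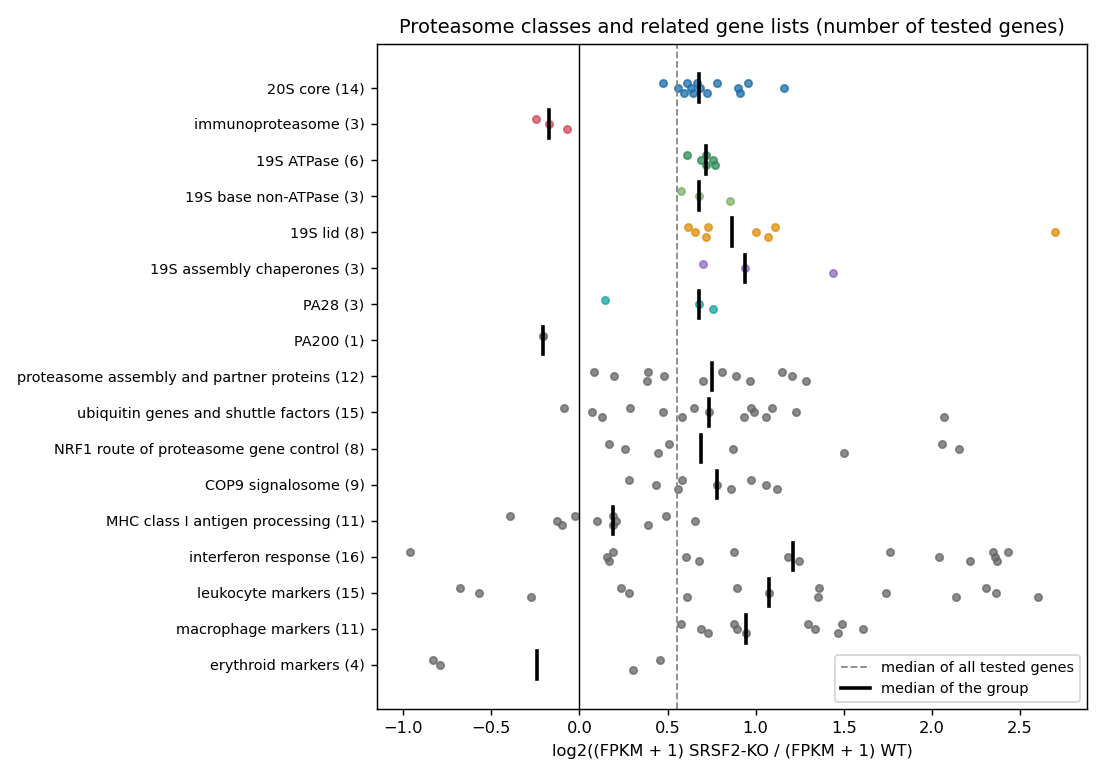
Log2((FPKM + 1) in SRSF2-KO / (FPKM + 1) in WT) for each tested gene of the proteasome classes (coloured) and of related gene lists and 3 marker lists (grey), with the number of genes in parentheses; the black bar is the median of a row and the dashed line the median of all tested genes, 0.55. The core, ATPase and base classes gather just right of the dashed line at medians of 0.68, 0.72 and 0.68, the immunoproteasome row lies left of 0 at -0.17, and the interferon row spreads widely around 1.21.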

How the data were processed

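The deposited tables list a read count and an FPKM per RefSeq accession, per the file headers, 1 table for the SRSF2-KO and 1 for the WT library. The read counts are whole numbers, and the authors scaled these to FPKM, which corrects for library size and transcript length. The submitters' processing notes name Bowtie 0.12.2 and build mm9. Not given in the sources used here: how reads were counted, whether by strand, how multiply mapped reads were treated, and whether animals were pooled. A near-identical copy may thus take or share reads: 8 members (Psma4, Psma5, Psmb3, Psmb5, Psmc1, Psmd2, Psmd11 and Psme2) match another GENCODE M21 gene at 95% identity or more over at least 50% of their transcript (BLAST). The annotated transcripts of Psmb7 and Nek6, and of Psmd13 and Sirt3, also share stretches.

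Symbols came from RefSeq (GRCm38.p6) and GENCODE M21 tables, by accession without version; 23419 of 26449 accessions were named, and reads and FPKM were summed per gene. Log2 ratios used a pseudocount of 1 FPKM and a filter of 1 FPKM in either library. No test was run, since each genotype has 1 library; read ratio intervals were scaled by the FPKM worth of 1 read (factor 1.01). They cover counting error only, since amplified reads are not independent molecules. All 43 members are named, and of each further pathway list the most abundant gene and the 3 whose log2 ratio was furthest from 0, except 1 gene that is not reported here. The members, lists and size rule were chosen with earlier results of these data known. Ecm29, Akirin2, Cd68, Csf1r and Ahsp found no match by symbol, so these were not analysed here. The computation was tested on simulated counts. The scripts ran in Python 3.11.15 with pandas 2.3.3, scipy 1.17.1, numpy 2.4.6, and, for figures, matplotlib 3.10.9. The 12 other settings, and 2 more chosen after seeing the data, are given in the closing section.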

Additional observations from a re-analysis of the deposited data

How the results depend on the processing

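None of the 41 tested members changed sign with a pseudocount of 0.1 or 5, on the TPM scale or on read counts. A pseudocount of 5 moved 8 of them by more than the distance from the middle of their log2 counting interval to its edge. Others, among them Psma5 at 0.851 against a lower end of 0.857, moved less but also fell below their interval. The choice of accession and a filter of 5 FPKM could not change a member's value, since each member has 1 accession and all 41 exceed that filter; having no filter only adds genes. Centring on the median of all genes lowered the median log2 ratio of the members to 0.15 and that of the 20S core to 0.12, and rescaling without the 20 most abundant genes lowered them to 0.39 and 0.34. Of the 41 members, Psma1 and Psme2 changed sign under centring, and Psme2 under rescaling without the 20 genes. The count of members at least 2-fold higher was 3 with a pseudocount of 5, 1 after centring and 2 without the 20 genes; at 1.5-fold it was 33 and at 4-fold 1. The margin of the members over all genes, 0.15, was 0.05 with a pseudocount of 0.1, 0.34 with a pseudocount of 5 and 0.03 on read counts, and 0.13 against the 7214 genes in the members' own range of abundance, so it depends on how scarce genes are treated. Leaving out Psmd8, or the 8 members with a near-identical copy, was an alternative chosen after seeing the data; the lid then exceeded the core by 0.05 and 0.07 instead of 0.19, and counting every Psmd gene as lid gave 0.12. The difference of the PA28 and core medians, 0.0033, was -0.0047 with a pseudocount of 5, so it has no direction. No paired analysis was possible because each genotype has 1 library. Depth limits Psma8 and Psmb11, which have at most 28 reads.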
